A study of Homo sapiens with 12 samples.

Results

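The genes of glycolysis, glycogen metabolism and the pentose phosphate pathway, with the kinases that gate pyruvate entry into mitochondria, were followed in BHLHE40-KD and LM-EV breast cancer cells before and during hypoxia. The set was given as 39 gene symbols, and each probe that the platform annotation assigns to them was taken. Of the 39 genes, 37 had 1 or more of 64 probes, 56 of those probes were detected, and 36 genes could be tested among 12336 genes of the whole array. The lactate transporters SLC16A1 and SLC16A3 have no probe in the annotation used here, and the only probe of PDK1 was detected on 6 of 12 arrays and left out of the tests. RNA was hybridized to 12 bead arrays that carry 47302 probes each. The 6 groups of 2 arrays each were BHLHE40-KD cells at 0, 6 and 48 h and LM-EV cells at 0, 6 and 48 h. LM cells are descendants of MDA-MB-231, a triple-negative human breast cancer line, selected for spread to the lung. BHLHE40-KD cells carry 1 hairpin against BHLHE40, LM-EV cells are pooled colonies with the empty vector, and both lines grew in puromycin. Cells at 0 h were untreated, and the others were exposed to 1% O2 for 6 or 48 h. The labels call the former only untreated, and 0 h is the name used here. No untreated array is labelled with 6 or 48 h, so time in culture cannot be told apart from the treatment. The sample labels add low glucose to the hypoxia, which the study's methods do not name for these arrays. Oxygen and glucose therefore cannot be told apart here. The paper's culture methods give low glucose as 1 mg/ml, and its methods for another array type give 1 mM. There was 1 knockdown line and 1 control line, and the line comparisons therefore compare those lines.

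Glycolysis splits glucose into pyruvate in the cytosol and yields ATP without oxygen. Cells short of oxygen stabilize hypoxia-inducible factors (HIFs), which are known to raise glucose transporters, most glycolytic enzymes, lactate dehydrogenase A and pyruvate dehydrogenase kinases, and with time also enzymes that build glycogen. The pentose phosphate pathway branches off at the first intermediate of glycolysis and supplies NADPH and ribose. BHLHE40 is a basic helix-loop-helix repressor that HIF induces and that binds E-boxes in DNA.

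On single arrays 20298 to 21830 probes were detected. BHLHE40 read lower in the knockdown than in the control line on each slide at each time, and the log2 difference averaged over the times was -0.60 (SE 0.17, limma adjusted p = 0.0251), whereas no single time passed (adjusted p of 0.0894 to 0.322). All 6 markers of mesenchymal breast cancer cells were detected on 12 arrays. Of 6 genes that MDA-MB-231 cells should lack, ESR1, PGR and CDH1 were detected on 0 to 2 arrays, whereas EPCAM and FOXA1 were detected on 12 and GATA3 on 11. The summed signal of these 6 was 3854 to 5072 in BHLHE40-KD and 1982 to 3166 in LM-EV cells. Of 3 markers of blood, endothelial and fibroblast cells, PTPRC was detected on 1 array, COL1A1 on 6 and PECAM1 on 12, with a summed signal of 445 to 788 in BHLHE40-KD and 267 to 477 in LM-EV cells. The summed signal of the 6 mesenchymal markers was 212590 to 244740 in BHLHE40-KD and 240030 to 270860 in LM-EV cells. Averaged over the times, BHLHE40-KD cells were lower in CD44 (-0.93) and CAV1 (-0.34) and higher in EPCAM (0.58), FOXA1 (1.32) and PECAM1 (1.14), with adjusted p-values of 0.000147 to 0.00776. The part of these differences in the line comparisons of the metabolic genes was not tested. In RNA of whole cultures, fewer cells that express a gene and less RNA per cell cannot be told apart.

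Hypoxia for 48 h was accompanied by higher signals of some glycolysis and glycogen genes in the average of the lines. Fewer genes passed within a line. No glycogen gene passed within LM-EV cells at 48 h, and GBE1 was the only 1 in BHLHE40-KD cells. Averaged over the lines, 9 of 36 genes (25%) rose and 1 (2.78%) fell at 48 h against 0 h, beside 7.46% and 7.74% of all genes tested (limma, Benjamini-Hochberg adjusted p under 0.05). The genes that rose were the glucose transporter SLC2A3, GPI, PFKFB4, ALDOC, PGK1, ENO2, PDK3, GBE1 and PYGL, and PDK2 fell. The median log2 change of the 36 genes was 0.18, and that of all genes was -0.03. Within the lines, 3 genes rose and 0 fell in BHLHE40-KD cells (2.43% and 2.75% of all genes), and 2 rose and 0 fell in LM-EV cells (1.1% and 0.778% of all genes). The medians were 0.16 in BHLHE40-KD and 0.19 in LM-EV cells, beside -0.03 and -0.02 for all genes. By the study's own rule of at least 1.5-fold on both slides, 6 genes were higher at 48 h in BHLHE40-KD and 4 in LM-EV cells, beside 4.2% and 4.05% of all genes, and 0 were lower in either line. The averaged comparison holds the arrays of both lines, so the counts are not independent of each other. Between 6 and 48 h, which shares no 0 h array, 5 genes rose and 0 fell (4.31% and 3.87% of all genes): ALDOC, PGK1, ENO2, GBE1 and PYGL. None of these 5 passed in more than 6 of 12 fits that left out 1 array, and ALDOC passed in 0 and had an adjusted p of 0.164 without the slide.

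**Figure D1:**
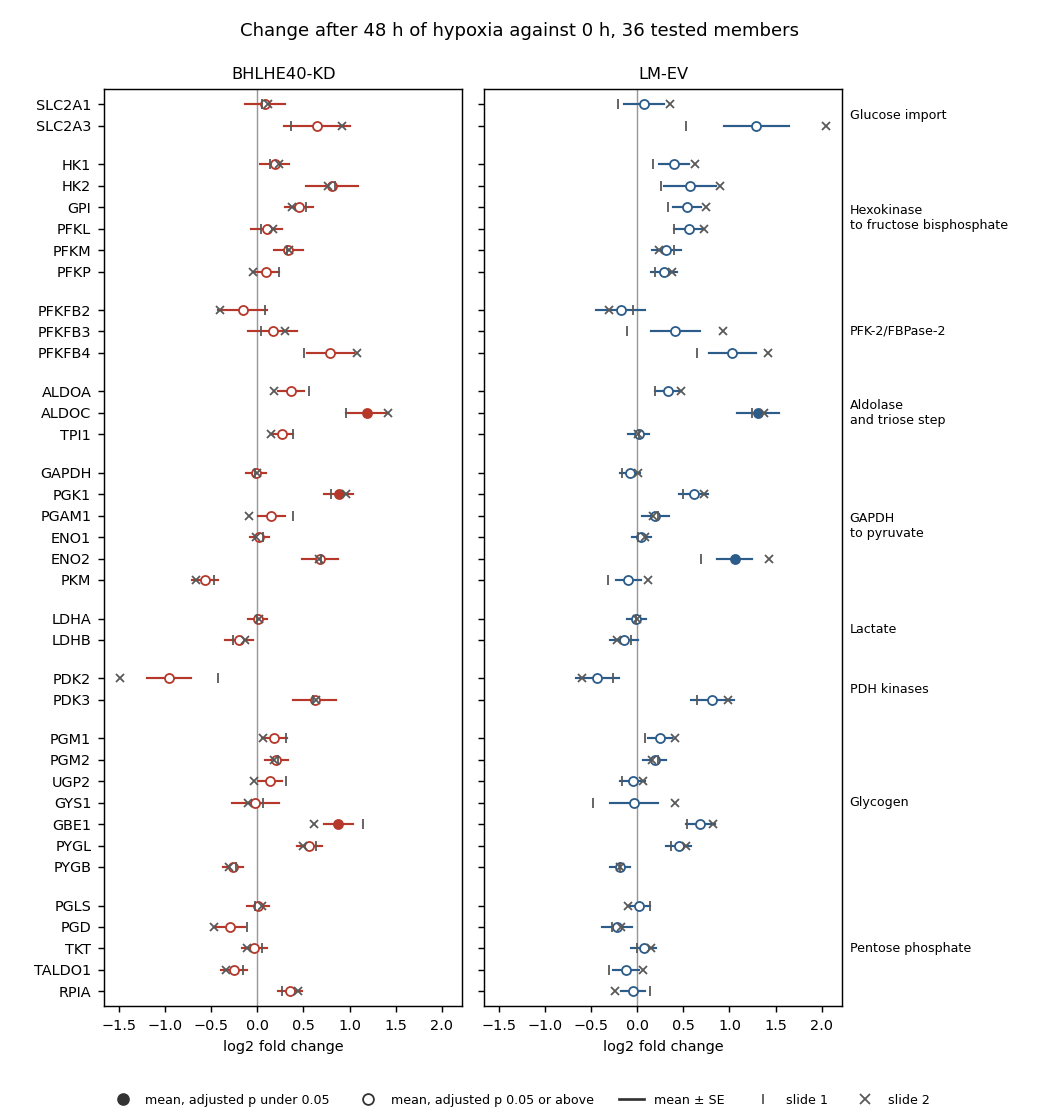
Log2 fold change at 48 h against 0 h (horizontal axis) of the 36 tested genes in BHLHE40-KD (left) and LM-EV cells (right). Circles are means with limma's SE, filled where the adjusted p was under 0.05, and ticks and crosses are slides 1 and 2. ALDOC, PGK1 and GBE1 are filled in BHLHE40-KD, ALDOC and ENO2 in LM-EV cells, and LDHA, GAPDH and ENO1 sit within 0.1 of 0 in both.

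ALDOC, a fructose bisphosphate aldolase best known from brain, had the largest change at 48 h among these genes. Its normalized intensity in BHLHE40-KD cells was 1072 and 1094 at 0 h, 1458 and 1427 at 6 h and 2092 and 2933 at 48 h (slides 1 and 2). The LM-EV arrays read 911 and 1448, 1532 and 2460, and 2159 and 3767 at the same times. All 4 arrays at 48 h lay above all 4 at 0 h. The averaged log2 change at 48 h was 1.25 (SE 0.16, adjusted p = 0.00617). Within a line it was 1.19 in BHLHE40-KD (SE 0.23, adjusted p = 0.0354) and 1.31 in LM-EV cells (SE 0.23, adjusted p = 0.044).

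PGK1, which makes the first ATP of the pathway, was measured by a pair of probes. The brighter probe gave 19617 and 18910 at 0 h, 27512 and 22338 at 6 h, and 34104 and 36868 at 48 h in BHLHE40-KD cells. LM-EV cells gave 19665 and 20103, 19031 and 22338, and 27742 and 33278. The arrays at 48 h were clear of those at 0 h in both lines, and at 6 h the LM-EV array of slide 1 was no higher than at 0 h. The log2 change at 48 h was 0.88 in BHLHE40-KD (SE 0.16, adjusted p = 0.0283), 0.61 in LM-EV (adjusted p = 0.0912) and 0.75 on average (SE 0.11, adjusted p = 0.00803). The dimmer probe, with a mean of 5320, changed by 0.27 on average (adjusted p = 0.158).

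ENO2 encodes the neuronal form of enolase, the enzyme before pyruvate kinase. In BHLHE40-KD cells its signal was 7201 and 7517 at 0 h, 8649 and 8176 at 6 h and 11613 and 11961 at 48 h. LM-EV cells gave 4472 and 4258, 4954 and 5376, and 7194 and 11470. The 48 h arrays of each line stood above its other arrays. LM-EV on slide 1 at 48 h did not exceed BHLHE40-KD at 0 h. The log2 change at 48 h was 0.68 in BHLHE40-KD (SE 0.19, adjusted p = 0.0855), 1.06 in LM-EV (SE 0.19, adjusted p = 0.0462) and 0.87 on average (SE 0.13, adjusted p = 0.00894).

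GBE1, the branching enzyme of glycogen synthesis, had signals of 6367 and 6522 at 0 h, 7508 and 7279 at 6 h and 14089 and 9952 at 48 h in BHLHE40-KD cells. In LM-EV cells they were 4735 and 3918, 4495 and 4512, and 6888 and 6936. GBE1 differed little at 6 h and was highest at 48 h on both slides of each line. The log2 change at 48 h was 0.88 in BHLHE40-KD (SE 0.16, adjusted p = 0.0307), 0.68 in LM-EV (adjusted p = 0.0782) and 0.78 on average (SE 0.11, adjusted p = 0.00783). ALDOC, PGK1, ENO2 and GBE1 passed the averaged comparison at 48 h in each of 12 fits that left out 1 array. Within LM-EV cells ALDOC and ENO2 passed in 0 of these 12 fits, and without the slide in the model their adjusted p-values were 0.128 and 0.0643. Within BHLHE40-KD cells ALDOC passed in 4, PGK1 in 6 and GBE1 in 4 of the 12 fits, and without the slide ALDOC had an adjusted p of 0.109.

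**Figure D2:**
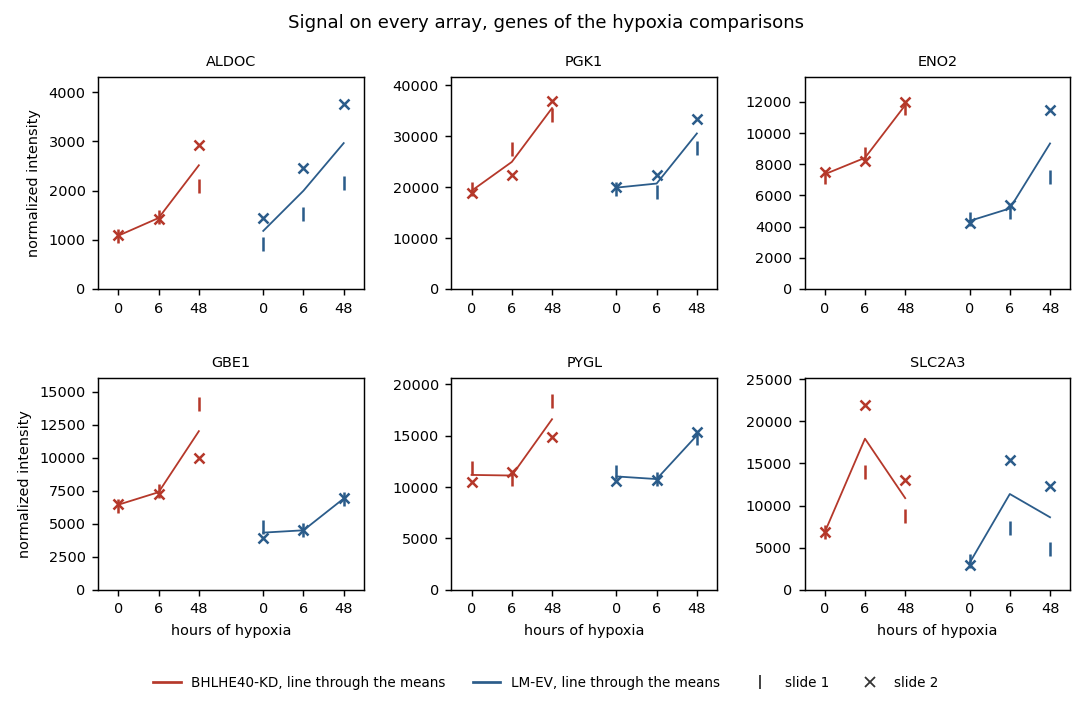
Normalized intensity (vertical axes, from 0) against hours of hypoxia for 6 genes, BHLHE40-KD left and LM-EV right in each panel, with ticks for slide 1, crosses for slide 2 and lines through the means. ALDOC, PGK1, ENO2, GBE1 and PYGL are highest at 48 h in both lines, whereas SLC2A3 is highest at 6 h, at 13951 and 21925 in BHLHE40-KD and 7287 and 15450 in LM-EV cells.

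HIFs bind the core letters ACGTG, and BHLHE40 binds the E-box CACGTG, which contains that core. Promoter windows of RefSeq (GRCh38.p14, 250 bases before to 50 after each start) were found for 36 of the 39 genes. ACGTG occurred on either strand in 25 of their 67 windows (37.3%), beside 21.4% of all 35116 windows, and CACGTG in 8 windows (11.9%) beside 7.26%. Of the 9 genes that rose at 48 h on average, 8 had a window and 6 of these held ACGTG. Among tested genes that did not rise it was 13 of 26, and among all genes with a window 6790 of 27305. A gene counted if any of its windows held the core. The members had 67 windows for 36 genes and all genes 35116 for 27305, so the number of windows per gene was unlike. Some windows of a gene overlap and can hold the same site. Whether these shares differ was not tested. The windows of the 4 genes above are shown because they moved together, and that of PKM because PKM differed most between the lines. Capitals mark ACGTG or its reverse complement CACGT, and in ALDOC also the E-box CACGTG. Each window is written from 5′ to 3′ along its gene.
ALDOC: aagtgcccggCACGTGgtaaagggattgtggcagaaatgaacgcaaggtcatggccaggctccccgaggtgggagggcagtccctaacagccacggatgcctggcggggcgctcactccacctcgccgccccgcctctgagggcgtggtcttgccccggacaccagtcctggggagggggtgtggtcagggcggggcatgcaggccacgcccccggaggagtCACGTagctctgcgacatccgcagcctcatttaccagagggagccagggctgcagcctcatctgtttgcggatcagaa
PGK1: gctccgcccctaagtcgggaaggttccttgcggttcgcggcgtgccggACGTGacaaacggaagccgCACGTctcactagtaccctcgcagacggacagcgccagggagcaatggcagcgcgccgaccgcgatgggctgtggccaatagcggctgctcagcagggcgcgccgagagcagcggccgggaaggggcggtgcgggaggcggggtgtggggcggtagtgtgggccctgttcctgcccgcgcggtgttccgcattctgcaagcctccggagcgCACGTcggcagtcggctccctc
ENO2: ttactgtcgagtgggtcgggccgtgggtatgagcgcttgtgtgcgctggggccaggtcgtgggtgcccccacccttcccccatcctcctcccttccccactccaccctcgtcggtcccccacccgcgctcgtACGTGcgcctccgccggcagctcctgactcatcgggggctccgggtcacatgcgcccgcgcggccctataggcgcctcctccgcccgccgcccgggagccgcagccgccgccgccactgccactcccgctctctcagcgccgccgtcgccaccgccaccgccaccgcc
GBE1: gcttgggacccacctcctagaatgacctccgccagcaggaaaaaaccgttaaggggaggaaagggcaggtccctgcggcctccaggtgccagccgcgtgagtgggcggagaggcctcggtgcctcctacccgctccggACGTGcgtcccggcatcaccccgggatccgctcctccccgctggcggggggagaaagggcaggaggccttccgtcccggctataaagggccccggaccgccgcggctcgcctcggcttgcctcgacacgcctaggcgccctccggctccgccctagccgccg
PKM: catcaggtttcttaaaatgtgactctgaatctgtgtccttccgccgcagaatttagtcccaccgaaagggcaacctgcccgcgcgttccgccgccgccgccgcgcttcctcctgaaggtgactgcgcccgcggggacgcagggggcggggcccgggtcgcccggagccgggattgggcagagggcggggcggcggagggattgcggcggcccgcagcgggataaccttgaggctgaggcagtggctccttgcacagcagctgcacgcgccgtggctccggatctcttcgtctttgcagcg
These windows lie at chr17:28576846-28577145 (minus strand), chrX:78103998-78104297 (plus), chr12:6914330-6914629 (plus), chr3:81761596-81761895 (minus) and chr15:72231141-72231440 (minus), and each gene has 1 window. Counted from the start of the gene, the first base of the core lay at -118 in ENO2 and at -112 in GBE1. ALDOC held the E-box at -240 and a further core at -28, and PGK1 held cores at -202, -183 and 28. The PKM window held none of these letters, which says only that they are not in that stretch.

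SLC2A3 (GLUT3), a high-affinity glucose transporter, rose 2.93-fold at 6 h averaged over the lines (log2 1.55, SE 0.25, adjusted p = 0.0116), the 1 member that passed there (2.78% of 36, beside 4.69% of all genes that rose and 7.04% that fell). With a prior variance that follows the signal, 4 members passed at 6 h on average, and the share of all genes under that setting is not given. SLC2A3 in BHLHE40-KD cells read 6795 and 6850 at 0 h, 13951 and 21925 at 6 h and 8765 and 12987 at 48 h. LM-EV cells read 3353 and 2986, 7287 and 15450, and 4852 and 12356. Every array at 6 h lay above the 0 h arrays of its line, and slide 2 carried more of the change than slide 1. Averaged over the lines, the log2 change was 1.08 on slide 1 and 2.03 on slide 2 at 6 h, and 0.45 and 1.49 at 48 h. At 48 h it was 0.97 (SE 0.25, adjusted p = 0.0421), and without the slide in the model adjusted p was 0.114. The 6 h change passed in each of 12 fits that left out 1 array and the 48 h change in 2. Within a line SLC2A3 missed the threshold at 6 h, at 1.36 in BHLHE40-KD (adjusted p = 0.0763) and 1.75 in LM-EV cells (adjusted p = 0.0773). No gene passed within a line at 6 h. In BHLHE40-KD cells 0 of 36 passed, where 1.9% of all genes rose and 3.25% fell. In LM-EV cells 0 passed, where 0.292% rose and 0.268% fell. An unadjusted limma p under 0.05 was seen for 2 members in BHLHE40-KD and 3 in LM-EV cells. Among all 12336 genes it was seen for 2614 and 2168. By the 1.5-fold rule SLC2A3 was higher in BHLHE40-KD (3.11% of all genes), and SLC2A3 and ALDOC were higher in LM-EV cells (2.65%). SLC2A3 has a near-identical neighbour, SLC2A14, and the probe sequences were not used here, so signal of both cannot be separated. SLC2A1 (GLUT1), the common glucose transporter and a classical HIF target, changed by 0.08 at 48 h (SE 0.15, adjusted p = 0.778), with signals of 6485 to 12656 over the 12 arrays.

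In the preparatory steps from hexokinase to fructose bisphosphate, all 6 genes had a positive mean change at 48 h in both lines and 1 of them rose. This gene was GPI, the isomerase between the phosphates of glucose and fructose. Its signals were 6255 and 7699 at 0 h, 9291 and 8277 at 6 h and 9029 and 9975 at 48 h in BHLHE40-KD cells. In LM-EV cells they were 5779 and 5045, 5702 and 6326, and 7287 and 8441. LM-EV on slide 1 at 48 h stayed below BHLHE40-KD on slide 2 at 0 h. The averaged change at 48 h was 0.50 (SE 0.11, adjusted p = 0.0264), at 0.43 and 0.56 on the slides. HK2, the hexokinase that hypoxia is known to induce, changed by 0.69 (SE 0.20, adjusted p = 0.0581) by its brighter probe and by 0.59 (adjusted p = 0.0459, adjusted over all probes) by its dimmer one, so the call depended on the probe. HK1 (0.29), PFKL (0.33), PFKM (0.33) and PFKP (0.19) did not pass, with adjusted p-values of 0.094 to 0.243. PFKFB4, 1 of the bifunctional enzymes that set the level of the sugar activator of phosphofructokinase, rose. In BHLHE40-KD cells it had 2213 and 1754 at 0 h, 1995 and 2856 at 6 h, and 3148 and 3700 at 48 h. LM-EV cells had 1379 and 1334, 1961 and 2997, and 2166 and 3554. LM-EV on slide 1 at 48 h lay below BHLHE40-KD on slide 1 at 0 h, but each line was higher at 48 h than at 0 h on both slides. The averaged change was 0.91 (SE 0.18, adjusted p = 0.0199), at 0.58 on slide 1 and 1.25 on slide 2. Its relatives PFKFB2 (-0.17) and PFKFB3 (0.29) did not pass (adjusted p = 0.586 and 0.341).

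Between aldolase and pyruvate, ALDOC, PGK1 and ENO2 rose as described, and ALDOA, TPI1, GAPDH, PGAM1, ENO1 and PKM did not pass at 48 h. ALDOA, the common aldolase, changed by 0.35 (adjusted p = 0.0565) by its brightest probe, whereas its next probe gave 24532 to 42607 over the 48 h arrays and 15272 to 23807 at 0 h, a change of 0.68 (adjusted p = 0.0204). PGAM1, phosphoglycerate mutase, likewise changed by 0.17 (adjusted p = 0.294) by the brighter probe and 0.41 (adjusted p = 0.0345) by the dimmer. PKM, pyruvate kinase, was the only gene of this stretch with a lower mean at 48 h by over 0.1, at -0.33 (SE 0.10, adjusted p = 0.0607). Where probes disagreed, the tested probe was the brightest, and the probe sequences and the transcripts they detect were not analysed here.

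Several enzymes of the lower pathway were among the brightest probes of the array. TPI1, GAPDH, ENO1, LDHA and LDHB had a tested probe among the highest 1% of all probes by mean signal (473 probes). Both bright probes of LDHA, lactate dehydrogenase A, read between 66752 and 72594 on all 12 arrays, and 72594 was the highest value of each array. On the 7 arrays whose bead signals matched the normalized table, they stood at 95.8% to 100% of the array's maximum. The tested probes of GAPDH (90.7% to 98.9%) and ENO1 (88.1% to 96.7%) were nearly as close to it, whereas those of TPI1 (61.8% to 95.4%) and LDHB (42.7% to 73.5%) reached further down. The change of LDHA at 48 h was -0.00 (SE 0.07, adjusted p = 0.976) by the tested probe. A dim LDHA probe with a mean of 655 read 644 and 735 at 48 h and 495 and 338 at 0 h in BHLHE40-KD cells, and 846 and 938 at 48 h and 663 and 652 at 0 h in LM-EV cells. Both arrays at 48 h were higher than both at 0 h within each line. The averaged change of this probe was 0.59 (adjusted p = 0.0655) and did not pass. Over all 209 tested genes with a probe in the highest 1%, the median size of the log2 change at 48 h was 0.058, against 0.218 for the other 12127, and among the members it was 0.047 for 5 genes and 0.294 for 31. Of the 209 genes, 6 (2.87%) were called at 48 h on average in either direction, whereas 7.46% of all genes rose and a further 7.74% fell. Between the lines 43 (20.6%) of the 209 were called in either direction. Of all genes, 21.3% were higher and a further 20.2% were lower in BHLHE40-KD cells. In both comparisons the 209 genes were thus called less often than all genes. Whether the RNA of TPI1, GAPDH, ENO1, LDHA and LDHB changed by more than their signals was not tested.

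**Figure D3:**
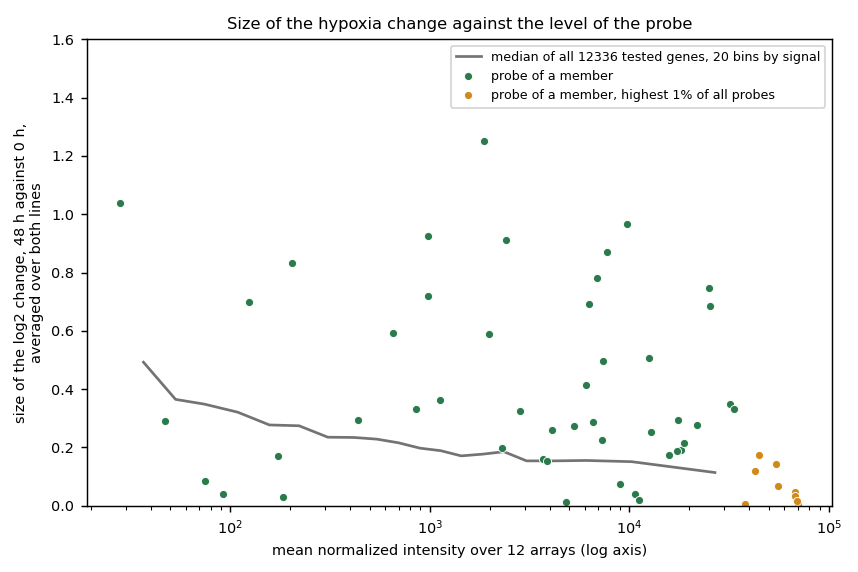
Size of the averaged log2 change at 48 h (vertical axis) against the mean normalized intensity over 12 arrays (horizontal log axis) for each detected probe of the members. The grey line is the median of all 12336 tested genes in 20 bins by signal and falls to 0.114 in the brightest bin. Orange probes, in the highest 1% of all probes by mean signal, all lie under 0.2, and green probes reach 1.25.

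The kinases that phosphorylate and inhibit pyruvate dehydrogenase moved in opposite directions. PDK3 had signals of 1109 and 770 at 0 h, 820 and 881 at 6 h and 1688 and 1196 at 48 h in BHLHE40-KD cells. LM-EV cells had 642 and 674, 807 and 861, and 1007 and 1330. Each line was higher at 48 h than at 0 h on both slides, but LM-EV on slide 1 at 48 h lay below BHLHE40-KD on slide 1 at 0 h. PDK3 rose by 0.72 (SE 0.17, adjusted p = 0.0305) on average, and its dimmer probe changed by 0.29 (adjusted p = 0.132). PDK2 was dim, at 141 and 228 at 0 h, 116 and 142 at 6 h and 104 and 81.1 at 48 h in BHLHE40-KD cells. The LM-EV arrays gave 119 and 139, 118 and 119, and 98.8 and 91.5. All 4 arrays at 48 h were lower than all 4 at 0 h. PDK2 fell by 0.70 (SE 0.17, adjusted p = 0.0319), at -0.35 on slide 1 and -1.05 on slide 2. Of 12 fits that left out 1 array, PDK3 passed in 7 and PDK2 in 4. PDK1, the best-known HIF target of the family, gave -11.3 to 93.8 over the 12 arrays, so its response was not resolved by this probe.

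Of 7 glycogen genes, GBE1 and PYGL rose at 48 h. PYGL, the liver form of the phosphorylase that breaks glycogen down, read 11860 and 10510 at 0 h, 10766 and 11483 at 6 h and 18368 and 14856 at 48 h in BHLHE40-KD cells. The control line read 11470 and 10601, 10828 and 10732, and 14753 and 15323. The 0 and 6 h arrays overlapped, and the 4 arrays at 48 h lay above all of them. The averaged change at 48 h was 0.51 (SE 0.09, adjusted p = 0.0155) and was nearly the same on both slides, at 0.50 and 0.52. Within the lines it was 0.57 in BHLHE40-KD (adjusted p = 0.0558) and 0.45 in LM-EV cells (adjusted p = 0.118). PYGB, the brain form, changed by -0.23 (adjusted p = 0.09), and GYS1, glycogen synthase, by -0.03 at signals of 132 to 270. PGM1 (0.22) and PGM2 (0.20), which move phosphate on sugars, did not pass (adjusted p = 0.162 and 0.18). UGP2, which makes UDP-glucose, the sugar donor of glycogen, changed by 0.04 (adjusted p = 0.803) by its brightest probe, whereas a dimmer probe rose. This dimmer probe had 834 and 674 at 0 h, 1060 and 1376 at 6 h and 1078 and 1438 at 48 h in BHLHE40-KD cells, and 502 and 501, 1077 and 1020, and 880 and 1354 in LM-EV cells. Its averaged change was 0.88 and 0.93 at 6 and 48 h (adjusted p = 0.02 and 0.0147).

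No pentose phosphate gene passed in a comparison of hypoxia by the tested probes. Averaged changes of the 5 genes at 48 h ran between -0.26 for PGD, the decarboxylating dehydrogenase, and 0.15 for RPIA, which makes ribose phosphate. RPIA read 3729 and 3485 at 0 h and 4498 and 4724 at 48 h in BHLHE40-KD cells. LM-EV cells read 3881 and 4228 at 0 h, and 4279 and 3585 at 48 h. A second TALDO1 probe read 61.1 and 72.0 in untreated LM-EV cells and passed detection nowhere else. By the lower bound against the dimmest detected signal it was at least 1.38-fold lower at 48 h than at 0 h in LM-EV cells. These values lie near the limit of detection. The probe entered the fit only because it was detected in untreated LM-EV cells, so its fall from that group is no independent result.

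The lines differed in many genes of the whole array. At 0 h, 4 of 36 metabolic genes (11.1%) were higher and 1 (2.78%) was lower in the knockdown line, beside 9.5% and 8.71% of all genes. At 6 h these counts were 5 (13.9%) and 1 (2.78%), beside 8.63% and 9.78%, and at 48 h 3 (8.33%) and 1 (2.78%), beside 7.89% and 8.6%. Averaged over the times, 9 genes (25%) were higher and 4 (11.1%) lower, beside 21.3% and 20.2%. Whether these shares differ from those of all genes was not tested. PKM, GBE1 and PGLS were higher and TKT was lower at each of the 3 times. Each of these calls of GBE1, PGLS and TKT at a single time was lost in some fits that left out 1 array. None changed sign. In those fits the log2 difference was 0.48 to 0.68 for GBE1 at 0 h, 0.36 to 0.51 for PGLS at 48 h and -0.56 to -0.39 for TKT at 6 h. The 3 time points use different arrays of the same lines and are no separate knockdowns.

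**Figure D4:**
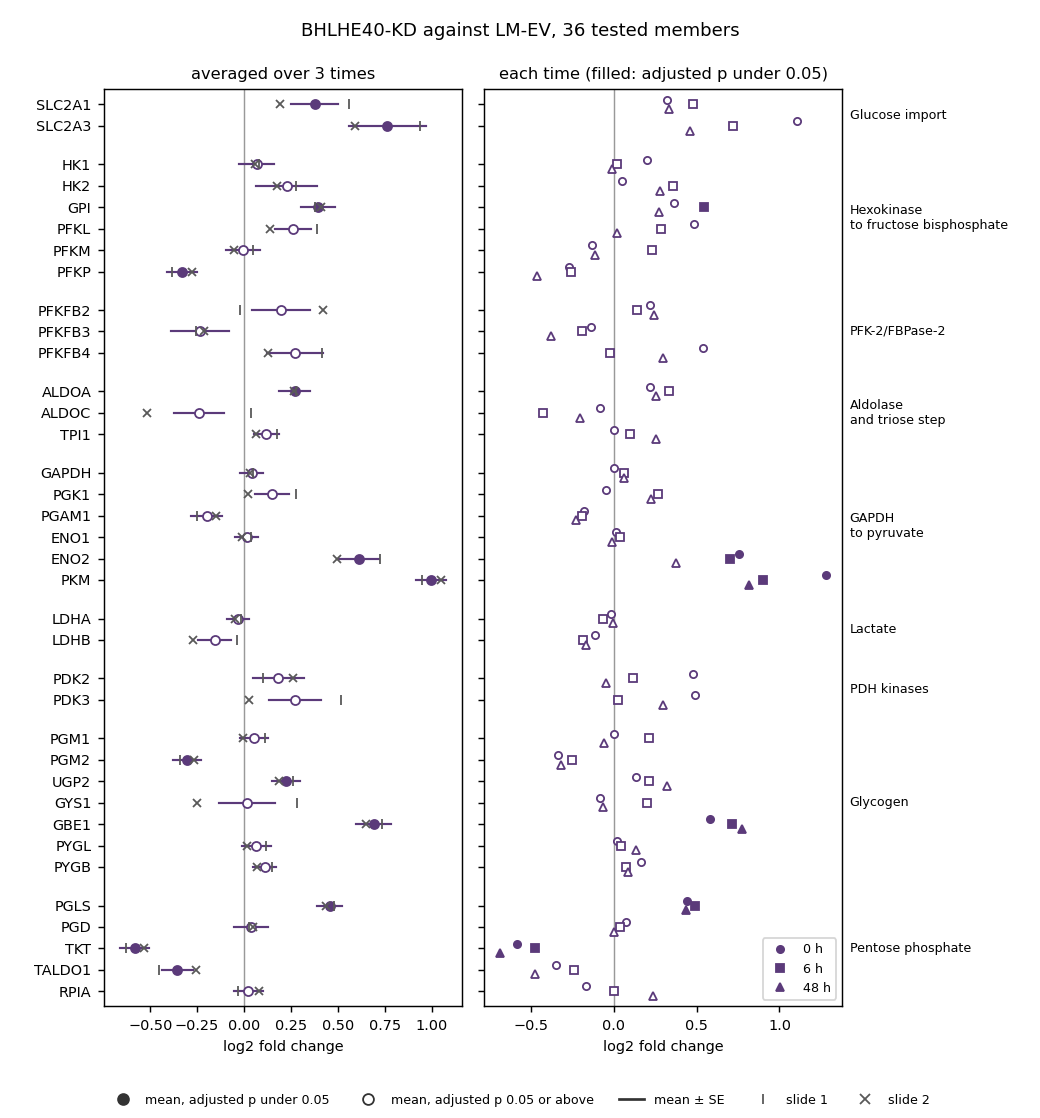
Log2 difference of BHLHE40-KD against LM-EV (horizontal axes) for the 36 tested genes, averaged over the times with limma's SE and the slides (left) and at each time (right). Filled symbols passed an adjusted p of 0.05. PKM stands at 1.00 and TKT at -0.58 on average.

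PKM, the enzyme that yields pyruvate and a second ATP, differed most. Its brightest probe read 50838 and 55671 at 0 h, 42234 and 46739 at 6 h and 36688 and 35165 at 48 h in BHLHE40-KD cells. The LM-EV arrays read 23674 and 20230, 24331 and 23323, and 19031 and 21952. Every BHLHE40-KD array lay above every LM-EV array. The log2 difference was 1.28, 0.90 and 0.81 at 0, 6 and 48 h (SE 0.14 each, adjusted p = 0.0015, 0.00587 and 0.00933). On average it was 1.00 (SE 0.08, adjusted p = 0.000108). The other probes gave 1.24 (adjusted p = 0.000152) and 1.12 (adjusted p = 0.000412) on average, so all 3 probes had the same direction. The averaged difference passed in each of 12 fits that left out 1 array, and that at 48 h in 10 of them.

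**Figure D5:**
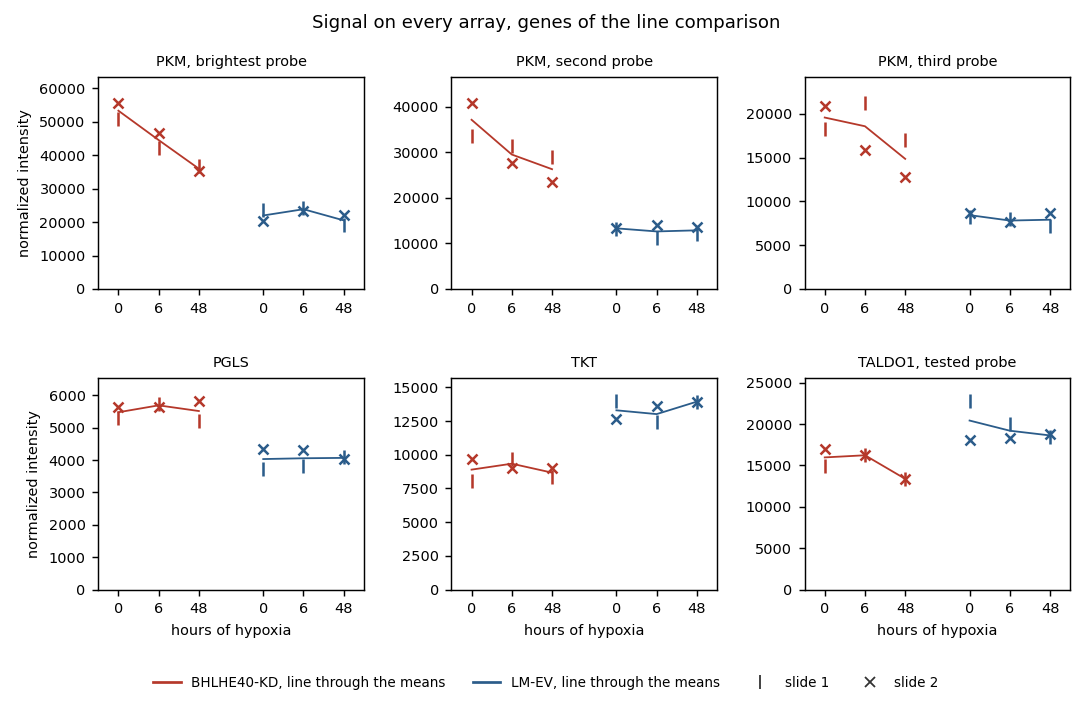
Normalized intensity (vertical axes, from 0) against hours of hypoxia for the 3 probes of PKM and for PGLS, TKT and TALDO1, with BHLHE40-KD left and LM-EV right in each panel. Ticks are slide 1, crosses slide 2 and lines run through the means. The BHLHE40-KD arrays of PKM lie above the LM-EV arrays for each probe, and those of TKT below.

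Among the other glycolytic genes, ENO2 was higher in BHLHE40-KD cells by 0.75 and 0.70 at 0 and 6 h (SE 0.19 each, adjusted p = 0.0335 and 0.0412), and its difference of 0.38 at 48 h did not pass (adjusted p = 0.221). GPI was higher by 0.55 at 6 h (adjusted p = 0.0487). Without the slide neither passed at 6 h, with an adjusted p of 0.0527 for ENO2 and 0.061 for GPI. Averaged over the times, ENO2 was higher by 0.61 (adjusted p = 0.00378), GPI by 0.39 (adjusted p = 0.0105), SLC2A3 by 0.76 (adjusted p = 0.0208), SLC2A1 by 0.38 (adjusted p = 0.0449) and ALDOA by 0.27 (adjusted p = 0.0326). Without the slide SLC2A3 did not pass (adjusted p = 0.0619). ALDOA did not pass with the mean of its probes, and neither SLC2A1 nor SLC2A3 passed without the detection filter. SLC2A1 read 9897 and 8412, 10884 and 12656, and 10269 and 9090 at 0, 6 and 48 h in BHLHE40-KD cells, and 7520 and 7117, 7055 and 10052, and 6485 and 9072 in LM-EV cells. On slide 1 each BHLHE40-KD array was the higher of its pair, whereas at 48 h on slide 2 the lines were nearly equal. ALDOA by its tested probe read 29179 and 33080, 36646 and 30805, and 42905 and 37515 in BHLHE40-KD, against 28629 and 24859, 27703 and 25651, and 32630 and 34551 in LM-EV cells. PFKP, the platelet phosphofructokinase, was lower, at -0.33 (SE 0.08, adjusted p = 0.0151). It read 13575 and 17955, 16056 and 15420, and 15978 and 17351 in BHLHE40-KD, and 19396 and 18255, 17982 and 19719, and 22196 and 23750 in LM-EV cells, so that the highest BHLHE40-KD array was just under the lowest LM-EV array.

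Glycogen genes were also split between the lines. GBE1 was higher in BHLHE40-KD cells by 0.58, 0.72 and 0.78 at 0, 6 and 48 h (SE 0.16 each, adjusted p = 0.0438, 0.0226 and 0.0185), and by 0.69 on average (SE 0.09, adjusted p = 0.00103). The 0 h difference of GBE1 did not pass without the slide (adjusted p = 0.0653). UGP2 was higher by 0.22 on average (adjusted p = 0.0482). It read 11038 and 11233 at 0 h, 11149 and 10901 at 6 h and 13678 and 10916 at 48 h in BHLHE40-KD cells, and 10750 and 9560, 9516 and 9494, and 9552 and 10005 in LM-EV cells. The lines did not overlap, and the gap between them was small. PGM2 was lower, at -0.30 (SE 0.07, adjusted p = 0.0132). It read 2145 and 1753, 1968 and 1986, and 2507 and 1991 in BHLHE40-KD cells, and 2703 and 2215, 2527 and 2202, and 3148 and 2475 in LM-EV cells. The lines overlapped, although BHLHE40-KD was the lower of each pair on the same slide. Neither passed without the slide in the model, with an adjusted p of 0.067 for UGP2 and 0.0663 for PGM2. The UGP2 call was also lost with the mean of its probes and with every probe on its own. Centring the arrays on their median and repeating the quantile normalization each lost it too.

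The pentose phosphate pathway held changes of both signs. PGLS, the lactonase of the oxidative branch, read 5299 and 5650 at 0 h, 5732 and 5642 at 6 h and 5189 and 5834 at 48 h in BHLHE40-KD cells. LM-EV cells read 3732 and 4328, 3805 and 4305, and 4102 and 4031. The lines did not overlap, and the difference was 0.46 on average (SE 0.07, adjusted p = 0.00155), at 0.45, 0.49 and 0.44 at the 3 times (adjusted p = 0.0375, 0.0275 and 0.0428). TKT, transketolase, runs the reversible branch that returns carbon to glycolysis. It read 8073 and 9720, 9659 and 9014, and 8363 and 8982 in BHLHE40-KD, and 13971 and 12612, 12437 and 13585, and 13929 and 13941 in LM-EV cells. Every BHLHE40-KD array was lower, and the difference was -0.58 on average (SE 0.08, adjusted p = 0.00101), at -0.58, -0.48 and -0.69 at 0, 6 and 48 h (adjusted p = 0.0242, 0.0462 and 0.0154). Without the slide PGLS passed at 0 of the 3 times (adjusted p = 0.0691, 0.051 and 0.08) and TKT did not pass at 6 h (adjusted p = 0.0595). TALDO1, transaldolase of the same branch, was lower, at -0.355 on average (SE 0.08, adjusted p = 0.0109). It read 14979 and 16956, 16253 and 16198, and 13410 and 13352 in BHLHE40-KD cells, and 22768 and 18065, 20048 and 18331, and 18435 and 18806 in LM-EV cells, with no overlap. PGD and RPIA differed by 0.04 and 0.02 on average and did not pass. Dimmer probes of other members differed where the tested probe did not pass, with averages of -0.45 for PGAM1 (adjusted p = 0.00376), -0.47 for LDHA (adjusted p = 0.0335), 0.82 for PFKFB2 (adjusted p = 0.00449), 0.28 for PGK1 (adjusted p = 0.0467) and 0.27 for GAPDH (adjusted p = 0.0372).

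The response to hypoxia was not shown to differ between the lines for any of these genes. The interaction of line and hypoxia passed for 0 of 36 genes at 6 h (0.0243% of all genes). At 48 h it passed for 0 (0% of all genes). An unadjusted limma p under 0.05 was seen for 0 members at 6 h and 1 at 48 h. Among all 12336 genes it was seen for 756 and 834. The SE of an interaction is larger than that of a single change, at 0.20 for PKM and 0.27 for ENO2. PKM had the largest interaction relative to its SE at 48 h, at -0.47 (adjusted p = 0.732), since its mean changed by -0.57 in BHLHE40-KD and -0.10 in LM-EV cells. For the genes that rose at 48 h the interaction lay between -0.65 (SLC2A3, SE 0.50) and 0.27 (PGK1, SE 0.22).

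A list of 86 further genes of these pathways was read beside the members, of which 52 were tested. At 48 h averaged over the lines 5 of 52 (9.62%) rose and 5 (9.62%) fell, beside 7.46% and 7.74% of all genes. Between the lines, on average, 14 (26.9%) were higher and 10 (19.2%) lower in BHLHE40-KD cells, beside 21.3% and 20.2%. PDK4, the kinase of the family that fasting induces, rose at 6 h by 1.82 in BHLHE40-KD (adjusted p = 0.0254) and 2.04 in LM-EV cells (adjusted p = 0.0483). In LM-EV cells the call was lost without the slide (adjusted p = 0.0775) and in each of 12 fits that left out 1 array, whereas the change averaged over the lines (1.93, adjusted p = 0.00469) passed in all 12. Its signals were 308 and 243 at 0 h, 1190 and 787 at 6 h, and 500 and 515 at 48 h in BHLHE40-KD cells, and 139 and 258, 804 and 755, and 486 and 575 in LM-EV cells. PDK4 was thus highest at 6 h, unlike PDK3. TIGAR, a phosphatase that lowers the sugar activator of phosphofructokinase, fell by 0.60 at 6 h on average (adjusted p = 0.0124), a call that was lost without the slide (adjusted p = 0.145). PGM5, a muscle relative of the phosphoglucomutases without known mutase activity, rose at 48 h by 1.24 in BHLHE40-KD (adjusted p = 0.0195) and 1.19 in LM-EV cells (adjusted p = 0.0381). The LM-EV call was lost without the slide (adjusted p = 0.0763) and passed in 0 of 12 fits that left out 1 array, and the averaged change (1.21, adjusted p = 0.00462) passed in all 12. It was lower in BHLHE40-KD at each time, at 370 to 1201 in BHLHE40-KD and 1836 to 5069 in LM-EV arrays. GAA, the lysosomal glucosidase that digests glycogen, rose at 48 h in LM-EV cells by 0.88 (adjusted p = 0.0432), which did not hold without the slide (adjusted p = 0.0793) and held in 2 of the 12 fits. The mitochondrial pyruvate carrier subunits MPC1 (-0.38, adjusted p = 0.0305) and MPC2 (-0.37, adjusted p = 0.0307) fell at 48 h on average, but without the slide their adjusted p-values were 0.0819 and 0.0611, and each passed in 2 of the 12 fits. FBP1, the gluconeogenic bisphosphatase, read 15.4 to 71.7 in BHLHE40-KD and 188 to 355 in LM-EV arrays (adjusted p = 0.00104 on average). HKDC1, a hexokinase relative, read 144 to 358 in BHLHE40-KD and 23.8 to 80.0 in LM-EV arrays (adjusted p = 0.000523). Each was detected on 9 of 12 arrays, so the size of these differences depends on values near background and is not given. DLAT (-0.63), PDHB (-0.54) and PDHX (-0.52), subunits of the pyruvate dehydrogenase complex, were lower in BHLHE40-KD cells on average (adjusted p = 0.000579, 0.000669 and 0.00163). The carrier subunits MPC1 (0.29) and MPC2 (0.52) were higher in BHLHE40-KD cells on average (limma adjusted p = 0.0152 and 0.00112). SLC2A6 (-1.30) and PPP1R3C (-1.13) were lower there (limma adjusted p = 0.000151 and 0.00135). PPP1R3F (1.39) and ADPGK (0.58) were higher (limma adjusted p = 0.000222 and 0.000964). SLC2A6 also changed by -0.88 at 48 h averaged over the lines (limma adjusted p = 0.00903), which passed in all 12 fits that left out 1 array.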

How the data were processed

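RNA was hybridized to 12 Illumina Human HT-12 bead arrays. The authors subtracted background and quantile-normalized the signals in GenomeStudio, and deposited them as normalized intensities on a linear scale. A deposited detection p-value per probe, made by the authors from negative control beads, accompanies each intensity. The deposited bead signals did not match the normalized table on 5 arrays and served only to place bright probes on the other 7. By the chip numbers in the labels, both slides carry 1 array of every group. The study's methods speak of 2 independent experiments. The labels do not say whether the slides are those experiments. With the slide in the model, p-values measure the spread between slides that remains after each gene's shift common to a slide is removed. Intensities were floored at 16 and log2 transformed. Probes entered when detected (p under 0.05) on both arrays of some group, and the brightest such probe stood for its gene. The fit used limma 3.58.1 in R 4.3.3 with 6 group means and the slide as a block, 13 two-sided comparisons and Benjamini-Hochberg adjustment over 12336 genes, or over all detected probes for a second probe of a gene. As a check of the block, deviations from group means correlated at -0.02 to 0.28 between arrays of the same slide (median 0.16, over 0.1 in 13 of 15 pairs of groups). The fit was tested on simulated data. Sequences were read from RefSeq tables. The number of arrays limits the precision. By the platform annotation used for symbols, 30105 probes have 1 symbol, 8 several and 17189 none. Each member whose tested probe passed in a comparison is given with the values of its arrays, the others by changes or ranges. The members and lists were chosen with earlier results of these data known. Alternatives were no slide block, other floors, filters, probe rules and scalings, and leaving out each array.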

Additional observations from a re-analysis of the deposited data

Results flagged for a closer look

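PKM had a mean log2 change at 6 h of hypoxia of -0.26 in BHLHE40-KD and 0.12 in LM-EV cells, with opposite signs in the lines on both slides. The difference of the changes was -0.38 (SE 0.20, unadjusted p = 0.0889, limma adjusted p = 0.827) and did not pass.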

How the results depend on the processing

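Of 489 comparisons of a called gene with an alternative setting, 436 kept the call, 53 lost it and 0 changed direction, leaving out single arrays aside. When 1 array was left out, 33 of 49 gene calls were lost in at least 1 of 12 fits and 0 changed sign. The slide was a replicate block in the model. Without the replicate block, the count of genes called was 0 at 48 h in LM-EV cells, 3 between the lines at 0 h and 2 at 6 h. A prior variance that follows the signal gave 2 genes at 6 h and 10 at 48 h in BHLHE40-KD, 3 at 6 h and 9 at 48 h in LM-EV cells, 4 at 6 h, 16 at 48 h and 11 between 6 and 48 h on average, and 8 at 0 h and 7 at 48 h between the lines. Probes with detection p under 0.01 on all 12 arrays gave 1 and 7 genes at 6 and 48 h in each line and 3 at 6 h on average. No detection filter gave 0 genes at 48 h in either line, 2 between 6 and 48 h and 3 between the lines at 0 and at 6 h. Every probe on its own gave 1 gene at 6 h and 1 at 48 h in LM-EV cells, both by the second TALDO1 probe. This setting gave 3 genes at 6 h on average. The mean of a gene's probes gave 1 at 6 h in LM-EV cells and 2 at 6 h on average. A floor of 64 gave 5 at 48 h in BHLHE40-KD cells. With 2-fold in place of 1.5-fold on both slides, 0 genes were higher at 48 h in BHLHE40-KD cells, and 1 at 6 h and 1 at 48 h in LM-EV cells. Leaving out 1 array gave 0 to 4 genes at 48 h in BHLHE40-KD cells, 0 in LM-EV cells, 4 to 9 at 48 h, 1 to 2 at 6 h and 0 to 4 between 6 and 48 h on average, and 1 to 4, 1 to 5 and 0 to 4 between the lines at 0, 6 and 48 h, with 9 to 13 over the times. On 1 slide alone the 1.5-fold rule gave 1 to 7 genes at 6 h and 7 to 10 at 48 h in BHLHE40-KD, and 3 to 5 and 4 to 13 in LM-EV cells. Shares of all genes called under these settings are not given here, so the counts do not set the members against the array. The causes were not tested. The 2 arrays of a group and the dim probes limit what could be called.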
